A study of Mus musculus with 4 samples.

Results

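Respiratory chain assembly factors are proteins that help to build the complexes of oxidative phosphorylation without remaining in the finished complexes as subunits. Their mRNAs were compared between isolated mitochondria and the remaining tissue of the mouse heart. Members were chosen by name among the protein-coding genes of the deposited table: the numbered families Ndufaf, Sdhaf, Coa, Uqcc and Atpaf, the genes Cox10, Cox11 and Cox14 to Cox20, Sco1, Sco2 and Surf1, and a fixed set of single genes such as Bcs1l, Foxred1 and Acad9. The rule found 43 of the 15746 genes in the table: 15 for complex I, 3 for complex II, 6 for complex III, 17 for complex IV and 2 for complex V. Cox20, Pet117, Sco2 and Sdhaf1, which the rule also names, are not analysed here.

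RNA was sequenced in 2 libraries of each fraction from hearts of adult mice of the WT genotype, with no other allele or agent. The libraries are labelled isolated mitochondria and tissue minus mitochondria, and the second fraction is called rest. Per the study's methods, rest is the pellet of a slow spin, which holds debris of the tissue and not the cytosol, so the comparison is not one of mitochondria with cytosol. The methods also describe treatment of the mitochondria with digitonin, a detergent that opens the outer membrane, and with RNase A, and do not describe it for the rest fraction. The effects of the fraction and of this treatment cannot be told apart. The labels do not say whether the libraries came from separate animals, so that p-values measure only the spread between these libraries.

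All the assembly factors studied here are encoded in the nucleus, translated on cytosolic ribosomes and imported into the organelle. They chaperone newly made subunits, insert heme, copper, flavin or iron-sulfur cofactors, and hold intermediates together until the next module joins. The heart, whose work depends on oxidative phosphorylation, is among the tissues most often affected when an assembly factor is lost. The mRNA of a mitochondrial protein can sit at the outer surface of the organelle during its translation, while the mitochondrial chromosome itself encodes only core subunits, rRNAs and tRNAs.

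The values are normalized counts, that is, the authors' read counts divided by a size factor of the library and rounded. Judged from the spacing of the values, mitochondrial replicates 1 and 2 held about 47400000 and 32100000 reads on genes, and rest replicates 1 and 2 about 26300000 and 23500000. Genes of the mitochondrial chromosome took 93.5 to 97.6% of the values in the mitochondrial libraries and 63.2 to 67.5% in the rest libraries. The 43 members therefore rested on only about 876 and 1186 reads in the mitochondrial libraries, with a median of 17 and 21 reads per member, against about 6943 and 5017 in the rest libraries. A single read was worth 3.87 and 2.55 normalized counts in the mitochondrial libraries, where the level of 3 reads was 11.6 and 7.65 normalized counts. All 8 cardiomyocyte markers examined, among them Myh6 and Tnnt2, were above 0 in every library. Both mitochondrial values lay above both rest values for 6 of the 8 and below for 1, with a median log2 fold change of 1.23, mitochondria over rest, 1 marker called higher, and sums of 215901 to 290431 against 211067 to 240580 normalized counts. Both mitochondrial values lay above both rest values for 5 of 5 fibroblast and 3 of 3 macrophage markers, whose sums were 3440 to 8188 against 2175 to 3063 and 164 to 286 against 99 to 116 normalized counts. They lay below for 4 of 5 endothelial markers, 4 of 4 blood markers and 3 of 3 nuclear RNAs, whose sums were 1862 to 2111 against 2828 to 3114, 50 to 323 against 412 to 781 and 8699 to 13648 against 42937 to 45482. Of 2 smooth muscle markers, 1 lay below and 1 was called lower, and their sums were 136 to 423 against 588 to 1374. Over all genes in the table, both mitochondrial values lay above both rest values for 23.0% and below for 33.8%. Of all genes tested, 2.16% were called higher and 1.39% lower. The part of these marker shifts in the results was not tested. Since the libraries are fractions of homogenized tissue, these shifts cannot be read as numbers of cells or as RNA per cell.

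The promoters of 2 of the 3 assembly factors called higher in mitochondria are shown because each holds a motif of a factor known to control nuclear genes of mitochondria. The windows are 300 bases of RefSeq's GRCm38.p6, from 250 bases before to 50 bases after the gene's start, written 5′ to 3′ on the strand of the gene, with the motif in capitals. Ndufaf8 lies on the plus strand, and its window, chr11:120098684-120098983, holds a YY1 motif. Uqcc2 lies on the minus strand, and its window, chr17:27133842-27134141, holds an NRF1 motif.
Ndufaf8: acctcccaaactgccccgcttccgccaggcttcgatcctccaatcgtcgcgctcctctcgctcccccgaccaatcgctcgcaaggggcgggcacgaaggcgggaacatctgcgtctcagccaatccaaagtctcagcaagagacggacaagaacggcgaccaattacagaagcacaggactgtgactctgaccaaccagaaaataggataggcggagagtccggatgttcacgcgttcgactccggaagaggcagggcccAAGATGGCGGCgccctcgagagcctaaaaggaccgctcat
Uqcc2: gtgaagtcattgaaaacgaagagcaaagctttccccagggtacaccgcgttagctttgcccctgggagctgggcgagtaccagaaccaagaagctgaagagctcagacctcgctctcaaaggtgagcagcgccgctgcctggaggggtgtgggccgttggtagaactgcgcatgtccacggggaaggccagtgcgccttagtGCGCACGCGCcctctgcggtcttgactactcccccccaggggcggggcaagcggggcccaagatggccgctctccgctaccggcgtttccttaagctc

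RefSeq gave 41 such windows for 38 of the 43 members. The NRF1 motif was searched as GCGC, any base and TGCGC, the YY1 motif as the letters in capitals in the window of Ndufaf8, the ETS motif as CCGGAAGT and the ERR motif as TCAAGGTCA, each on both strands. None of these motifs holds another. In Uqcc2 the NRF1 match is on the strand opposite to the gene. The NRF1 motif was in 6 of them (14.6%), against 10.0% of 10885 windows of the protein-coding genes tested and 4.6% of all 32851 windows. The 6 genes were Ndufaf4, Ndufaf5, Sdhaf3, Sdhaf4, Tmem186 and Uqcc2. The YY1 motif was in 4 windows (9.76%), those of Atpaf2, Cox10, Ndufaf8 and Tmem126b, against 1.57% and 0.633%. The ETS motif was in 8 windows (19.5%) of 7 genes, against 7.96% and 3.89%. These were Bcs1l, Cox10, Cox14, Cox15, Cox16, Timmdc1 and Tmem186, none of them called higher. Tmem186 held it in both of its overlapping windows. The ERR motif was in 0 windows of the members and in 0.239% of the windows of tested genes. The window of Coa3, the third factor called higher, held none of these letters, and a match is only a description of the sequence.

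The main comparison asked which assembly factor mRNAs differed in level between the fractions. Ndufaf8, Uqcc2 and Coa3 were higher in mitochondria at an adjusted p-value under 0.05, and 0 factors were lower. Of all 43 members, 29 (67.4%) had both mitochondrial values above both rest values, against 23.0% of all genes in the table. Another 3, Ttc19, Sco1 and Cox16, had both values below, against 33.8% of all genes, and 11 overlapped. The mitochondrial values of Cox16 rested on about 0 and 1 reads, so that its direction is not read as a difference. The test was made in limma on log2 of the normalized count plus 1, with Benjamini-Hochberg adjustment over 12150 genes that reached 10 normalized counts in at least 2 libraries. It covered 42 members, of which Sdhaf4 and Coa4 reached the limit only through the mitochondrial libraries, and left out Cox16. Over all genes tested, 2.16% were called higher and 1.39% lower. At an unadjusted p under 0.05 in limma the members numbered 21 higher and 0 lower, against 14.1% and 16.2% of all genes. The 21 include Sdhaf4, whose entry to the test rested on its mitochondrial values.

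The median log2 fold change, mitochondria over rest, was 0.82 over the 42 members tested and -0.14 over all genes, a difference of 0.96. It was above 0 in 37 members, exactly 0 in Bcs1l and below 0 in Sco1, Ttc19, Nubpl and Coa7, while 43.7% of all genes were above 0. Fold changes of more than 2-fold upward were seen in 16 members, against 11.7% of all genes, and 5 members exceeded 4-fold, Sdhaf4 among them. These directions are relative to the deposited size factors. Scaled to the library total, where the mitochondrial chromosome dominates, the median of the members was -3.06 and that of all genes -3.93, with 40 members and 98.9% of all genes called lower. Scaled to the mitochondrial chromosome, all 42 members and 99.4% of all genes were called lower. With the total of the other chromosomes the medians were -0.01 and -0.98. Ndufaf8, Uqcc2 and Sdhaf4 were then called higher (1.06% of all genes) and Sco1 and Ttc19 lower (31.4%). Sdhaf4 entered the test only through its mitochondrial values. Against the median gene, the members stood higher by 0.87 with the library total and 0.96 without the mitochondrial chromosome. In all, 40 of 42 members lay above the median gene with the deposited size factors, and 36 to 40 did so under the 14 alternatives that gave all 42 a value.

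**Figure D1:**
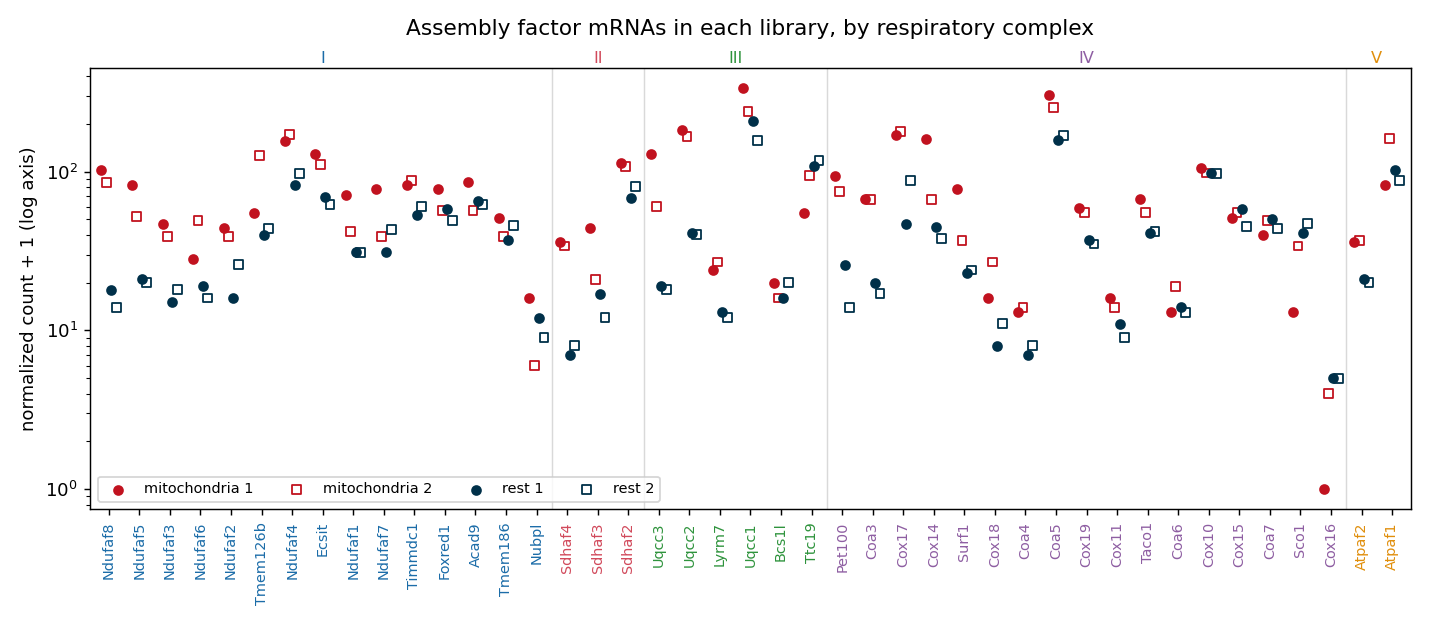
Normalized counts plus 1 of the 43 assembly factors in each of the 4 libraries, on a log10 axis, with members on the horizontal axis grouped by the complex they serve. For 29 members both mitochondrial points stand above both rest points, and for Ttc19, Sco1 and Cox16 both stand below. The mitochondrial points of Cox16 rest on about 0 and 1 reads.

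Among the factors of complex I, Ndufaf8 had the largest difference of all members. Ndufaf8 is a small protein with twin cysteine motifs that stabilizes Ndufaf5, the enzyme that hydroxylates an arginine of the subunit Ndufs7. Its gene (ENSMUSG00000078572) is at chr11:120098928-120100705 of GRCm38, plus strand. In mitochondria the 2 libraries gave Ndufaf8 101 and 84 normalized counts, and in rest 17 and 13. The mean was 92.5 ± 12 (SD, n = 2) against 15 ± 2.83 (SD, n = 2), and the groups were far apart. Ndufaf8 rose by 2.55 on the log2 scale in mitochondria (SE 0.29, 95% interval 1.78 to 3.32, limma adjusted p = 0.0427), from about 26 and 33 reads in the mitochondrial libraries.

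The partner Ndufaf5 had 81 and 51 normalized counts in mitochondria and 20 and 19 in rest, the second largest difference of the complex I factors. Its log2 fold change of 1.67 (SE 0.34) missed the threshold, with a limma adjusted p of 0.063. Ndufaf3 and Ndufaf4 hold the module that binds ubiquinone, the Q-module. Ndufaf3 had 46 and 38 against 14 and 17 normalized counts, and Ndufaf4 had 155 and 171 against 81 and 96. Their groups did not overlap, and their log2 fold changes were 1.38 (SE 0.32) and 0.88 (SE 0.21), with limma adjusted p of 0.073 and 0.074.

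Ndufaf6 had 27 and 48 against 18 and 15 normalized counts, and Ndufaf2, which is bound to a late intermediate before the NADH-oxidizing N-module joins, had 43 and 38 against 15 and 25. Neither overlapped between the fractions. Of the exon bases of Ndufaf2, 65.6% are shared with an antisense gene, and the use of strand in counting is not given in the sources used here. Ndufaf7, a methyltransferase, overlapped with 77 and 38 against 30 and 42, and so did the oxidoreductase Foxred1 with 77 and 56 against 57 and 48. Nubpl, which delivers iron-sulfur clusters to complex I, had 15 and 5 against 11 and 8, values that rested on about 4 and 2 mitochondrial reads. Over the 9 complex I factors named so far, the median log2 fold change was 1.02. Of the 9, 6 (66.7%) did not overlap and were higher, against 67.4% of all members and 23.0% of all genes.

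The MCIA complex is an assembly machine in the inner membrane that builds the part of the membrane arm around the subunit ND2. Its 6 members in the table had a median log2 fold change of 0.70, and 0 of 6 passed the test. Tmem126b had 54 and 125 normalized counts in mitochondria against 39 and 43 in rest. Ecsit had 128 and 110 against 68 and 61, Ndufaf1 had 70 and 41 against 30 and 30, and Timmdc1 had 81 and 87 against 52 and 59. These 4 of 6 (66.7%) did not overlap and were higher, against 67.4% of all members and 23.0% of all genes in the table. Ecsit had the smallest adjusted p of the 6 in limma, 0.081, at a log2 fold change of 0.87. Acad9, which is also an acyl-CoA dehydrogenase, overlapped with 85 and 56 against 64 and 61, and so did Tmem186 with 50 and 38 against 36 and 45.

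**Figure D2:**
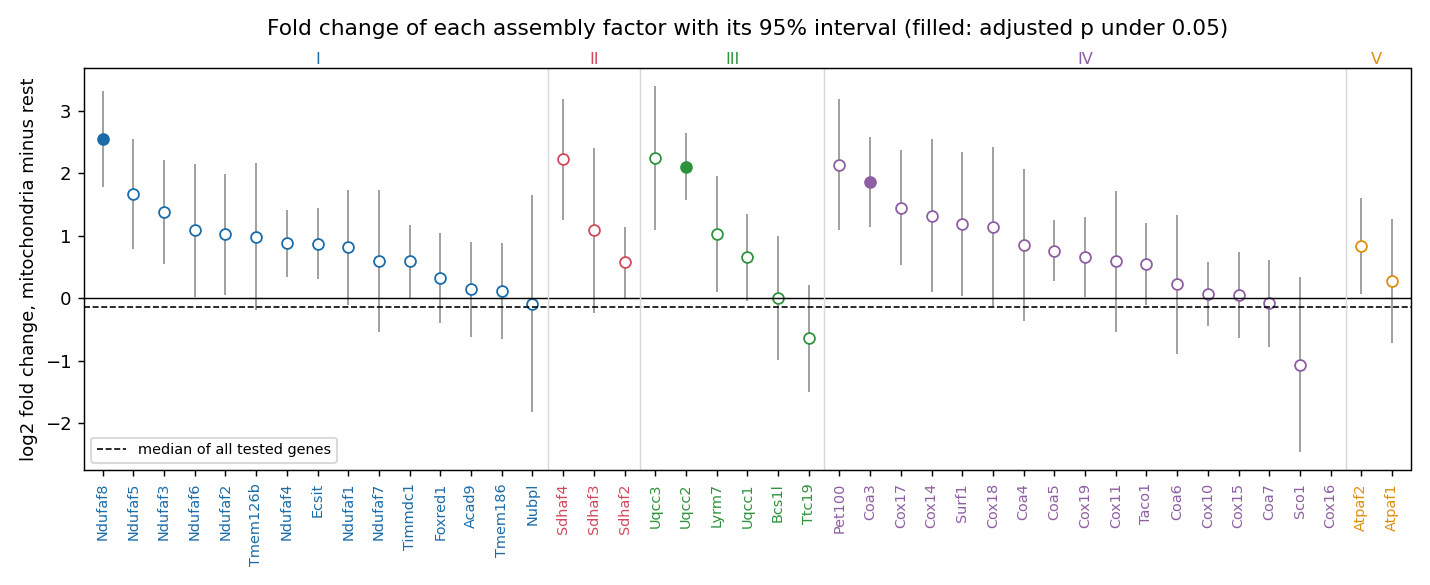
Log2 fold change, mitochondria over rest, of the 42 assembly factors tested, with 95% intervals from limma and 2 libraries per fraction. Members are grouped by complex on the horizontal axis, and Ndufaf8, Uqcc2 and Coa3 are the 3 called higher at an adjusted p-value under 0.05.

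The factors of complex II mature succinate dehydrogenase, which links the citric acid cycle to the respiratory chain. All 3 had both mitochondrial values above both rest values, against 67.4% of all members and 23.0% of all genes in the table. The test was passed by 0 of the 3. Sdhaf4, which takes over the subunit Sdha once its flavin is bound, had 35 and 33 normalized counts in mitochondria and 6 and 7 in rest. Its log2 fold change of 2.23 (SE 0.37) was the third largest of all members, with a limma adjusted p of 0.053 from about 9 and 13 mitochondrial reads. Sdhaf4 reached the limit for testing only through the mitochondrial libraries, where it was high, so this p-value is not read as support. Sdhaf3, which protects the iron-sulfur subunit Sdhb during its maturation, had 43 and 20 against 16 and 11. Sdhaf2, which is needed to attach the flavin to Sdha, was the most abundant of the 3 with 112 and 107 against 67 and 80, and its log2 fold change was 0.57 (SE 0.22, limma adjusted p = 0.161).

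The factors of complex III act on different subunits. Uqcc1, Uqcc2 and Uqcc3 receive cytochrome b, which the mitochondrial chromosome encodes. These 3 all had both mitochondrial values above both rest values, against 67.4% of all members and 23.0% of all genes in the table. Uqcc2 (ENSMUSG00000024208, chr17:27122663-27133916 of GRCm38, minus strand) had 182 and 166 normalized counts in mitochondria and 40 and 39 in rest. The mean of Uqcc2 was 174 ± 11.3 (SD, n = 2) against 39.5 ± 0.71 (SD, n = 2). Uqcc2 rose by 2.11 on the log2 scale (SE 0.21, 95% interval 1.57 to 2.65, limma adjusted p = 0.0427), from about 47 and 65 mitochondrial reads, and its exons overlap no other gene. Uqcc3 had 128 and 59 against 18 and 17, so that its mitochondrial replicates differed more from each other than those of Uqcc2. Its log2 fold change was 2.25 (SE 0.44, limma adjusted p = 0.060). Uqcc1 had the highest mean normalized count of all members over the 4 libraries, with 337 and 237 against 206 and 156 and a log2 fold change of 0.65 (SE 0.27, limma adjusted p = 0.183).

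The other 3 factors of complex III act on the Rieske iron-sulfur protein, which is made in the cytosol and added last. Their median log2 fold change was 0.00. Lyrm7, the chaperone that holds the Rieske protein in the matrix, had 23 and 26 normalized counts in mitochondria against 12 and 11 in rest. Bcs1l, the AAA protein that moves it across the inner membrane, had 19 and 15 against 15 and 19, the same values in the other order. Ttc19, which helps to clear fragments of the Rieske protein, had 54 and 94 against 107 and 117. Both mitochondrial values of Ttc19 were below both rest values, at a log2 fold change of -0.64 (SE 0.33, 95% interval -1.50 to 0.21, limma adjusted p = 0.256). The difference between the cytochrome b and the Rieske factors was not tested, since members are not replicates.

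For complex IV, cytochrome c oxidase, the first steps concern COX1, a core subunit encoded by the mitochondrial chromosome. Coa3 and Cox14 bind COX1 as it is made, Taco1 activates its translation and Surf1 acts while its heme is added. All 4 had both mitochondrial values above both rest values, against 67.4% of all members and 23.0% of all genes in the table. The median log2 fold change of the 4 was 1.26. Coa3 (ENSMUSG00000017188, chr11:101277968-101279114 of GRCm38, minus strand) had 66 and 66 normalized counts in mitochondria and 19 and 16 in rest. The mean of Coa3 was 66.0 ± 0.00 (SD, n = 2, equal after rounding) against 17.5 ± 2.12 (SD, n = 2). Coa3 rose by 1.86 on the log2 scale (SE 0.28, 95% interval 1.14 to 2.58, limma adjusted p = 0.0471), from about 17 and 26 mitochondrial reads. Of its exon bases, 9.26% are shared with the antisense gene Cntd1.

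Cox14, the other COX1 chaperone, had 159 and 66 normalized counts in mitochondria against 44 and 37 in rest. With replicates that far apart, its log2 fold change of 1.32 (SE 0.47) had a limma adjusted p of 0.148. Surf1 had 77 and 36 against 22 and 23, and Taco1 had 66 and 54 against 40 and 41. Pet100, a small factor of complex IV in the inner membrane, had 93 and 74 against 25 and 13. Its log2 fold change of 2.14 (SE 0.40) was among the 5 above 2, with a limma adjusted p of 0.058, and 52.6% of its exon bases are shared with the antisense gene Pcp2.

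Heme A, the cofactor found only in cytochrome c oxidase, is made from heme B by Cox10 and Cox15. Cox10, which adds the farnesyl tail, had 105 and 97 normalized counts in mitochondria and 97 and 96 in rest. Cox15, which completes heme A, had 50 and 54 against 57 and 44. Both enzymes overlapped between the fractions. The log2 fold change was 0.06 for Cox10 (95% interval -0.45 to 0.58) and 0.05 for Cox15 (-0.64 to 0.74). With the deposited size factors, a 2-fold difference lay outside both intervals, and this holds for that scaling only.

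The copper factors bring copper to the metal centres of complex IV. Cox17, the chaperone of the intermembrane space that hands copper on, had 170 and 179 normalized counts in mitochondria against 46 and 87 in rest. Its log2 fold change of 1.45 (SE 0.35) had a limma adjusted p of 0.078. Cox19 had 58 and 54 against 36 and 34, Cox11 had 15 and 13 against 10 and 8, and Coa6 overlapped with 12 and 18 against 13 and 12. Cox11 rested on about 4 and 5 mitochondrial reads, and shares 48.3% of its exon bases with the antisense gene Tom1l1. Sco1, which receives copper from Cox17 for the subunit COX2, was the member with the lowest log2 fold change of all. Sco1 had 12 and 33 against 40 and 46, that is, -1.06 (SE 0.54, 95% interval -2.46 to 0.34, limma adjusted p = 0.252). Its mitochondrial values rested on about 3 and 13 reads.

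The remaining factors of complex IV differed widely in level from each other. Coa5 was the most abundant of complex IV in normalized counts, with 302 and 253 in mitochondria against 158 and 167 in rest, at a log2 fold change of 0.76 (SE 0.19, limma adjusted p = 0.080). Cox18, which moves the tail of COX2 across the inner membrane, had 15 and 26 against 7 and 10. Coa4 had 12 and 13 against 6 and 7, from about 3 and 5 mitochondrial reads. Coa7 overlapped with 39 and 48 against 49 and 43. Cox16, which works on COX2 and shares 56.8% of its exon bases with Gm20498 on the same strand, was at 0 and 3 against 4 and 4 normalized counts. Both mitochondrial values of Cox16 were under the level of 3 reads in their libraries, so that no fold change is given and a difference was not detectable at this depth.

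For complex V, ATP synthase, Atpaf1 and Atpaf2 bind the beta and alpha subunits until the F1 head is formed. Atpaf2 had 35 and 36 normalized counts in mitochondria against 20 and 19 in rest, at a log2 fold change of 0.83 (SE 0.29, limma adjusted p = 0.146). Atpaf1 overlapped, with 81 and 161 against 102 and 87. A transcript of Atpaf1 is identical over 843 bases to the pseudogene Gm14117, and reads from this stretch would have been excluded when they aligned to several regions.

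By the mean over all 4 libraries per kb of exon, the most abundant members were Uqcc2, Cox14, Uqcc3, Ndufaf8 and Coa3. Their levels in normalized counts per kb were 208, 156, 114, 111 and 74.5 in mitochondria and 47.2, 56.0, 21.3, 18 and 19.8 in rest. The same 5 were the highest in mitochondria. In rest, Cox14 and Uqcc2 were the highest, while Coa3 and Ndufaf8 stood below members such as Cox10 with 31.8 and Coa5 with 31.1 normalized counts per kb. The lowest was Cox16 with 0.40 and 1.07 normalized counts per kb, followed by Nubpl with 2.02 and 1.92. For Cox16, reads on exon bases shared with Gm20498 would have been excluded, while the length counts all exon bases.

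All 3 members called higher had a main transcript under 1000 bases: 781 for Ndufaf8, 500 for Uqcc2 and 886 for Coa3. The 8 members under 1000 bases had a median log2 fold change of 1.99, the 15 of 1000 to 2000 bases 0.85, the 17 of 2000 to 4000 bases 0.32 and the 2 longer ones 0.57. All nuclear protein-coding genes had medians of 1.17, 0.41, -0.12 and -0.47 in the same classes. Across the 42 members, the log2 fold change and log2 transcript length had a Pearson r of -0.61 and a Spearman rho of -0.56. Over 10597 nuclear protein-coding genes they were -0.42 and -0.43. These are correlations across genes measured in the same 4 libraries, given as a description. Transcript length moves with the result, and its part in it was not tested.

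Set beside genes of their own length class, 37 of 42 members lay above the median of the class, by a median of 0.50 on the log2 scale. The members farthest above it were Pet100, Cox17, Sdhaf3, Ndufaf8 and Ndufaf5, by 1.73, 1.56, 1.56, 1.38 and 1.27. Cox17 and Sdhaf3 were classed by main transcripts of 3690 and 4323 bases, with coding sequences of only 189 and 375 bases. Sco1 and Coa6 were farthest below, each by -0.95, and Ttc19, Bcs1l and Ndufaf2 were the other 3 below, by -0.53, -0.41 and -0.15. Coa6 and Ndufaf2, with 747 and 678 bases, were short members that stood below the median of short genes. The mitochondrial values of Coa6 rested on about 3 and 7 reads, and those of Bcs1l on about 5 and 6.

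**Figure D3:**
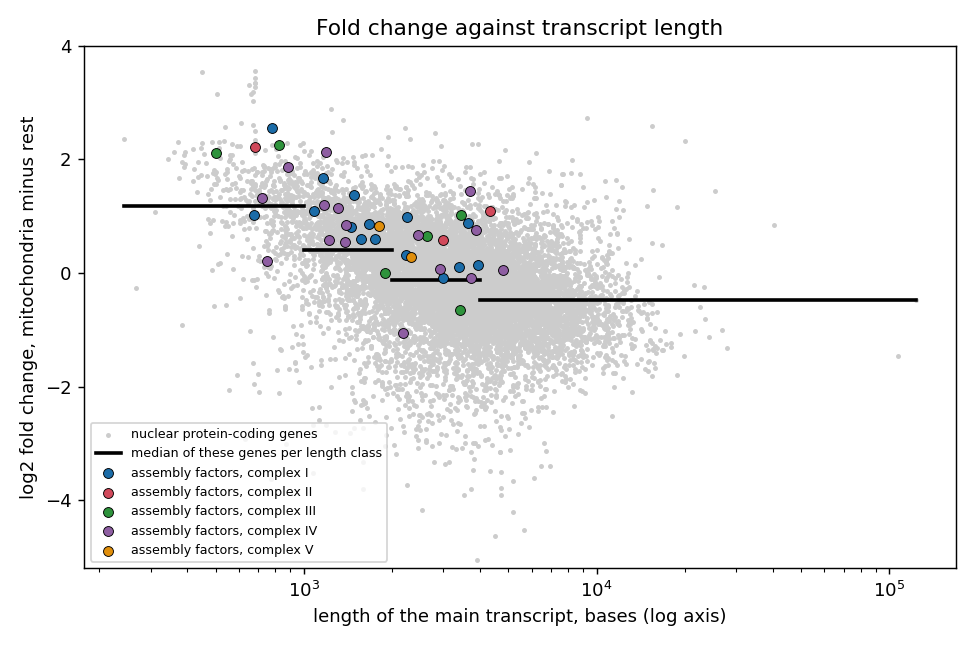
Log2 fold change, mitochondria over rest, against the length of the main transcript in bases on a log10 axis, for the 42 assembly factors over all nuclear protein-coding genes tested. Short transcripts stand higher in both sets, and 37 of 42 assembly factors lie above the median of their length class.

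The structural subunits that these factors assemble had larger fold changes. Of 37 nuclear-encoded subunits of complex I, 17 were called higher and 36 had both mitochondrial values above both rest values, with a median log2 fold change of 1.53. Of 43 subunits of complexes II to V tested, 22 were called higher, with a median of 1.67. Of the 44 listed, 41 had both mitochondrial values above both rest values and 1 had both below. Over all genes tested, 2.16% were called higher, and 23.0% of all genes in the table had both mitochondrial values higher. The subunits had shorter and more abundant mRNAs, with median main transcripts of 908 and 765 bases against 1781 for the assembly factors, and medians of about 146 and 239 reads in mitochondrial replicate 1 against 17. The difference between subunits and assembly factors was not tested.

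Other genes with a role in assembly that the name rule did not cover were listed separately, 20 in all. Higd1a, which binds cytochrome c oxidase and is named here after its values were seen, rose among them, with 120 and 145 normalized counts against 46 and 45 and a limma adjusted p of 0.0469 at a log2 fold change of 1.52. The other 19 did not pass the test. Of the 20, 16 had both mitochondrial values above both rest values, Higd1a included, against 23.0% of all genes in the table. Their median log2 fold change of 0.86 was close to the 0.82 of the members.

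**Figure D4:**
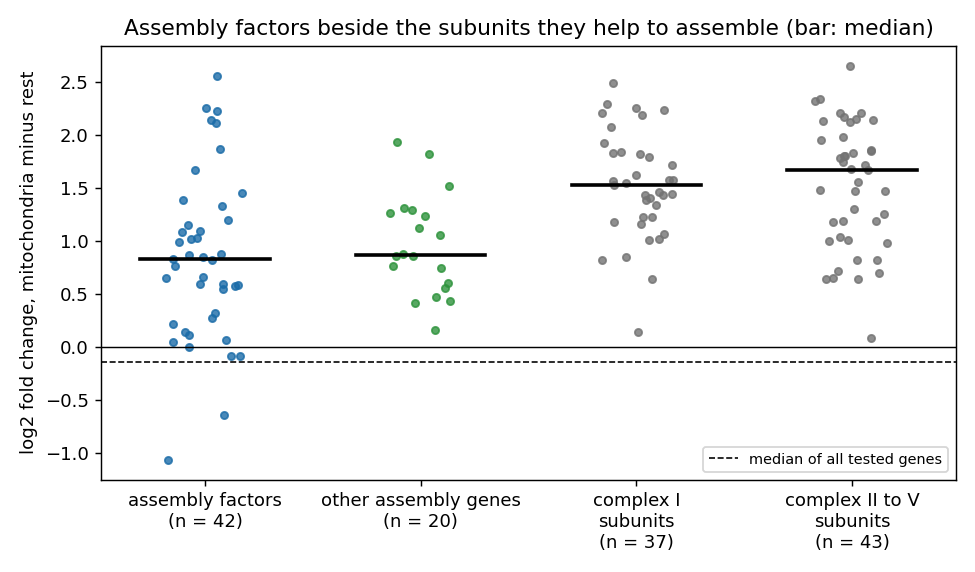
Log2 fold change, mitochondria over rest, of the members of each list, with 1 point per gene and the median of the list as a bar. The assembly factors have a median of 0.82, the other assembly genes 0.86, the complex I subunits 1.53 and the complex II to V subunits 1.67.

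The number of members called depended on the libraries and on the model of the error. The median replicate SD on the log2 scale was 0.22 for the members in mitochondria and 0.15 in rest. With any 1 of the 4 libraries left out, 1 fraction held a single library, and no member and no other gene passed in limma. The log2 fold change then stayed between 2.37 and 2.73 for Ndufaf8, between 2.04 and 2.18 for Uqcc2 and between 1.74 and 1.98 for Coa3. With a pseudocount of 0.1, 0 members and 0 of all genes passed. At an unadjusted p under 0.05 in limma, 19 of 42 members, Sdhaf4 included, and 1694 of 12150 genes were then higher.

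Other settings called more members higher and 0 lower. Precision weights from the estimated reads called 12 (8.91% of all genes): Coa3, Coa5, Cox14, Cox17, Ndufaf3, Ndufaf4, Ndufaf5, Ndufaf8, Pet100, Sdhaf4, Uqcc2 and Uqcc3. Of these, Sdhaf4 entered the test only through its mitochondrial values. A pseudocount of 10 called 7 (4.41%) and TMM scaling, a trimmed mean of ratios, 6 (3.65%). Sdhaf4 was among both sets, with the same limit. The replicate number as a block called 5 (3.87%), and the limit of a mean above 50 normalized counts, which left 20 members and not Coa3, called 8 (14.2%). Recomputed size factors (2.46%) and no filter (1.77%) called Ndufaf8, Uqcc2 and Coa3 as before.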

How the data were processed

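RNA of isolated mitochondria and of the rest fraction of WT mouse hearts was sequenced by the authors in 2 libraries each, with a kit for 10 ng of total RNA. Per the labels, reads were trimmed with Trimmomatic 0.39, aligned to mm10 with STAR 2.7.10a, counted with featureCounts 2.0.2 and normalized with DESeq2 1.30.1. Reads on several genes or regions were excluded per the study's methods. The deposited score of a gene is its read count divided by the library's size factor and then rounded by the authors, called the normalized count here. Since it is no raw count, a count test was not used.

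Members were matched by gene name. The members and all lists were chosen with earlier results of these data known. Genes that reached 10 normalized counts in 2 or more libraries were tested in limma 3.58.1 (R 4.3.3) with a mean-variance trend on log2(normalized count + 1), two-sided, adjusted by Benjamini-Hochberg over all 12150, so that fold changes of low genes are understated. Fractions were compared with no block. Reads per library were estimated from the spacing of values, and are approximate for rest, where a read is worth under 1 normalized count. They cover counting error only. Values were given for the members called, the highest and lowest of each complex, the 5 highest per kb and the role lists, and for the other members in full. Ndufaf8 and Uqcc2 promoters were chosen for their motifs, and 41 of 43 members have the same position in GENCODE M21, which gave exons and main transcripts. The main transcript is a protein-coding one, with those that GENCODE marks as principal taken first. Ties went to the longest coding sequence and then to the longest transcript. Scripts were tested on simulated data. Alternatives were other scalings, filters, pseudocounts, weights, a replicate block and each library left out.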

Additional observations from a re-analysis of the deposited data

How the results depend on the processing

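The median log2 fold change of the members minus that of all genes was 0.96 and ranged from 0.71 to 1.07 over the alternatives. With the library total as scaling, 0 members were higher and 40 lower (median -3.06), and with the total of the mitochondrial chromosome 0 and 42 (median -3.59). The log2 fold changes of Uqcc2, Coa3 and Ndufaf8 were then -1.82, -2.00 and -1.32, and -2.36, -2.52 and -1.85. By construction both totals follow the mitochondrial chromosome. The total without that chromosome gave 3 higher and 2 lower, Sco1 and Ttc19 (median -0.0127), and there Coa3 had an adjusted p of 0.0619. Among the members, 6 were higher with TMM scaling, 8 of 20 with a mean above 50, 0 with a pseudocount of 0.1, 7 with a pseudocount of 10 (median 0.652) and 12 with precision weights. Recomputed size factors and no filter each gave 3. Sdhaf4 was among those called with TMM scaling, the pseudocount of 10, precision weights and the total without the mitochondrial chromosome. It entered the test only through its mitochondrial values.

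With each library left out in turn, no member passed in limma, the lone library being assumed to vary like the others. The median log2 fold change of the members was then 0.649 to 0.81. The replicate block gave 5 higher, adding Pet100 and Uqcc3. Deviations of same-numbered libraries had r = 0.13 over 12150 genes, but with 2 pairs the libraries share only a number. Under the pseudocount of 0.1, 19 members, Sdhaf4 included, and 1694 of 12150 genes were higher at an unadjusted p under 0.05 in limma.

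Depth limits the mitochondrial values: 12 and 7 of the 43 members had under 10 reads there, and 4 and 2 had 3 or fewer.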
